A study of Mus musculus with 120 samples.

Results

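Conventional dendritic cells (cDC) sorted from the liver lymph nodes of C57BL mice were compared between a normal diet (ND) and a methionine and choline deficient diet (MCDD) given for 2 weeks. The cells were all wells listed with 1 cell on the 11 plates whose labels name the lymph node cDC sort, 4180 of the 44840 cell wells of the series. The sort took CD45+Lin-MHC-II+CD11c+ cells, without the T cell receptor gate that the sort of T cell and cDC doublets added. There were 5 ND plates and 6 MCDD plates, each with 380 cell wells and 4 empty wells. All mice shared the strain, the tissue and the time point, and no genotype, transgene, age or number of animals per plate is given in the sources used here.

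cDC take up antigen in tissues, travel to the draining lymph node and present it there to T cells. The type 1 subset, which the study's title concerns, carries the chemokine receptor XCR1 and presents antigen mainly to CD8 T cells, and type 2 cDC present mainly to CD4 T cells. Feeding without methionine and choline blocks the export of fat from the liver and is a common model of steatohepatitis in mice. The lymph nodes sampled here drain that organ.

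Each well was described by the number of genes detected and by a total count, taken here as the depth of the well. The sources used here do not say whether the total counts reads or molecules, or whether it includes added control RNA. That bears on every comparison at a given total and on the slope. The empty wells of ND plate 1 in SB410, for example, had totals of 984 to 2047 and 5 to 9 genes. The deposited tables used here name no gene and no surface readout, so the cDC label could not be checked against Itgax, H2-Ab1, Xcr1 or any other marker. The values therefore describe how much was recovered from each sorted cell, not which genes it used. Fewer cells caught in wells and less RNA per cell cannot be told apart in them.

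Plates were sequenced in 3 batches. SB405 held ND plates 2 and 3 and MCDD plates 3, 4 and 5, and SB410 held ND plates 1, 2 and 6 and MCDD plates 1 and 2. SB399 held MCDD plate 1 and no ND cDC plate, so it entered no comparison of diets within batches. The total summed over a plate's cell wells ranged from 3317498 to 9933111. Medians over the 4180 cell wells were 358 genes and a total of 12915.5. The 44 empty wells had medians of 8.5 genes and a total of 556.5. In SB405 the highest empty well had 35 to 42 genes on MCDD plates and 9 to 12 on ND plates. In SB410 these were 8 to 11 and 8 to 12. A pair of plates stood apart before diets were compared. On ND plate 1 of SB410, 40 of 380 cell wells had no more genes than its highest empty well, and on MCDD plate 1 of SB399, where an empty well reached 96 genes, 54 did. The other 9 plates had 0 to 3 such wells.

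The first question was whether the diet moved the whole distribution of genes per cell or 1 end of it. The largest difference lay at the low end, where MCDD plates were mostly higher. In SB405 the difference was above 0 at all 5 percentiles, and in SB410 and in the mean of both batches it was below 0 from the median up. No single percentile passed its test. At the 10th percentile, SB405 plates had 105 and 76.6 genes on ND and 229.9, 191.9 and 135 on MCDD. In SB410 this percentile lay at 9, 60.9 and 70 genes on ND and at 69 and 81.9 on MCDD. The diets did not overlap in SB405, and in SB410 they touched at 69 and 70 genes. At the median, SB405 plates had 447.5 and 419 genes on ND and 527.5, 521.5 and 378.5 on MCDD, and the MCDD plates lay on both sides of the ND plates. SB410 medians were 281.5, 330 and 250 genes on ND and 224.5 and 233.5 on MCDD, with every MCDD plate below every ND plate. At the 90th percentile, SB405 plates had 993.4 and 890.2 genes on ND and 1140, 1144.4 and 858.1 on MCDD. In SB410 they had 789.3, 822.7 and 609.6 genes on ND and 515.1 and 533 on MCDD, again without overlap.

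**Figure D1:**
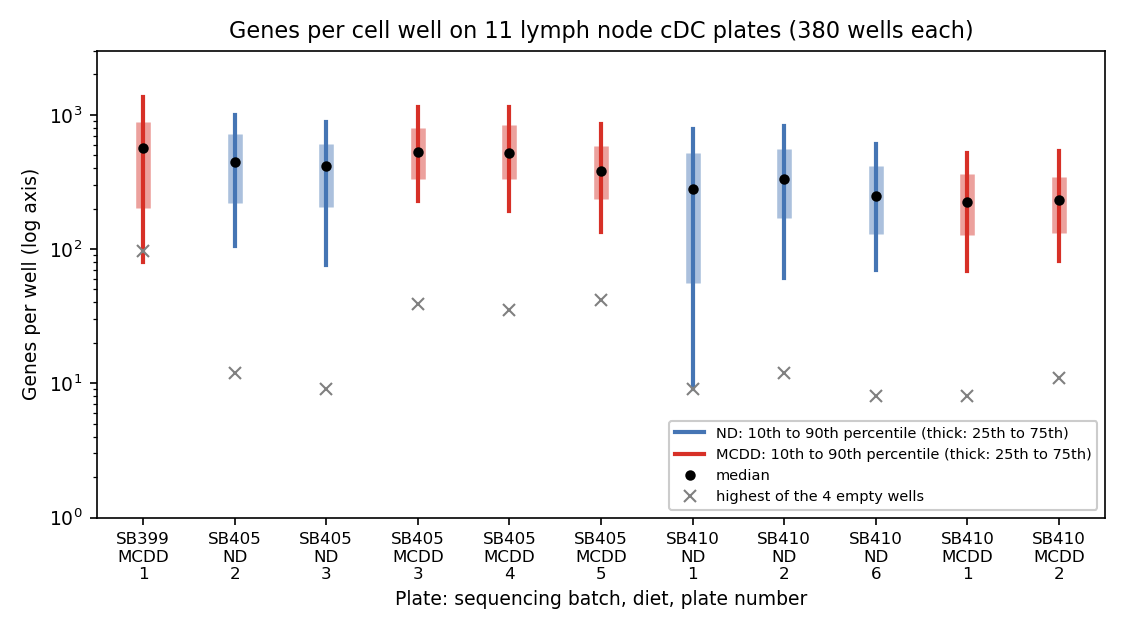
Genes per cell well on each of the 11 cDC plates, on a log axis. Thin bars run from the 10th to the 90th percentile over 380 wells, thick bars from the 25th to the 75th, points are medians and crosses the highest of the 4 empty wells. In SB405 the lower ends of the MCDD bars (135 to 229.9 genes) lie above those of the ND bars (76.6 and 105), and the ND plate 1 of SB410 reaches down to 9 genes, the level of its highest empty well.

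Averaged over both batches, with 5 plates per diet, the 10th percentile was 2.08-fold higher on MCDD (1.06 ± 0.61 SE on the log2(genes + 1) scale). The exact permutation test of plates within batches gave p = 0.07, and 0.35 after adjustment over the 5 percentiles. The 25th percentile differed by 0.37 ± 0.33 SE and the median by -0.10 ± 0.13 SE. The 75th and the 90th percentile differed by -0.16 ± 0.14 SE and -0.17 ± 0.13 SE. Adjusted p-values of these 4 lay between 0.4625 and 0.5 in the exact permutation test. The difference at the low end was 1.007 in SB405 and 1.11 in SB410. Without ND plate 1 of SB410 the 10th percentile differed by 0.20 in that batch and by 0.65 over both, so the batches no longer gave like values. At the high end the batches went opposite ways, with 0.14 in SB405 and -0.49 in SB410 at the 90th percentile. The difference between these batch effects was 0.63 (exact permutation test, p = 0.07, adjusted p = 0.567 over 20 readouts).

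Depth was compared in the same way. The 10th percentile of the total was 5643.7 and 6787.4 on the ND plates of SB405, and 8672.2, 9319.2 and 4984.3 on its MCDD plates. In SB410 it was 1913.9, 3861.4 and 2478.1 on ND and 3110.6 and 2953.8 on MCDD. The diets overlapped in both batches. Over both batches the total differed by 0.23 ± 0.27 SE at the 10th percentile, -0.22 ± 0.25 SE at the median and -0.25 ± 0.25 SE at the 90th (log2(total + 1), MCDD minus ND). No percentile of the total passed (adjusted p of 0.4625 to 0.87, exact permutation test over 5 percentiles).

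**Figure D2:**
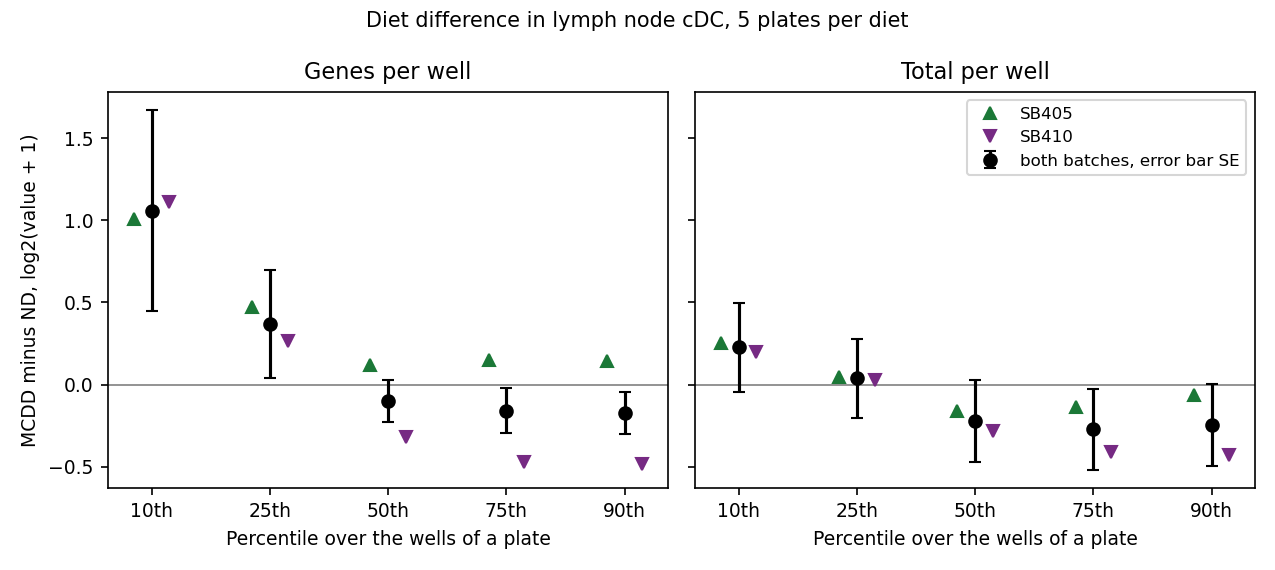
Difference between diets, MCDD minus ND, on the log2(value + 1) scale at 5 percentiles of genes (left) and of the total (right). Black points are the mean over both batches with its SE (5 plates per diet), and triangles are SB405 and SB410 alone. For genes the difference runs from 1.06 at the 10th percentile to -0.17 at the 90th, and for the total from 0.23 to -0.25.

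Wells were also counted by fixed thresholds on genes. In the batches with both diets, 307 of 1900 cDC wells on ND and 150 of 1900 on MCDD had fewer than 100 genes. These sums do not weigh batches alike, since SB410, where such wells were more frequent, held 3 of the 5 ND plates and 2 of the 5 MCDD plates, and 106 of the 307 came from ND plate 1 of SB410. In SB405 there were 35 and 46 such wells per plate on ND and 7, 4 and 21 on MCDD. In SB410 there were 106, 58 and 62 on ND and 67 and 51 on MCDD. The groups were apart in SB405 and overlapped in SB410. The share of wells with at least 100 genes ran from 72.1% on ND plate 1 of SB410 (95% Wilson interval 67.4 to 76.4%) to 98.9% on MCDD plate 4 of SB405 (97.3 to 99.6%). It was 6.07 ± 2.92 SE percentage points higher on MCDD (exact permutation test, p = 0.07, adjusted p = 0.14). Wells with at least 1000 genes made up 6.1% to 14.2% of MCDD plates and 6.3% to 9.7% of ND plates in SB405. In SB410 they made up 0.26% to 1.1% and 0.53% to 5.3%. Their share differed by 0.13 ± 2.06 SE percentage points (exact permutation test, adjusted p = 0.94). A level of 2000 genes was reached by 7 wells of MCDD plate 1 of SB399. It was reached by 0 of 380 wells on each of 6 plates, where a count of 0 allows up to 0.789%.

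Genes depend on depth, so wells of the same total were compared next. A target total was set for each batch at a percentile of its cDC wells, and the median of genes was taken over wells within 0.5 of it on the log2 scale. At the median target, a total of 17653.5 in SB405, the ND plates had 487 and 365.5 genes and the MCDD plates 519.5, 465 and 511.5. At a total of 9373 in SB410, the ND plates had 276.5, 235 and 331 genes and the MCDD plates 244 and 258.5. The diets overlapped at this depth in both batches. The difference was 0.05 ± 0.13 SE on the log2 scale at the median target, 0.25 ± 0.19 SE at the 25th percentile target and 0.06 ± 0.13 SE at the 75th. By exact permutation their adjusted p-values were 0.74, 0.63 and 0.74. At the median and the 75th percentile targets the sign depended on the batch, with 0.24 in SB405 at both and -0.15 and -0.12 in SB410, and it also turned without ND plate 3 of SB405 (-0.07 and -0.08).

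At a low depth the plates fanned out. At the 10th percentile of the total, 6560.2 in SB405, the ND plates had 169.5 and 96 genes and the MCDD plates 251, 184.5 and 223. At a total of 2741.8 in SB410, the ND plates had 13, 39 and 109 genes and the MCDD plates 79.5 and 93. The groups were apart in SB405, and in SB410 ND plate 6 was above both MCDD plates while the other ND plates were below them. The difference of 0.95 ± 0.58 SE on the log2 scale did not pass the exact permutation test (p = 0.12, adjusted p = 0.24 over the 10th and 90th percentile targets). Without ND plate 6 of SB410 it was 1.26, with an adjusted p of 0.0333 in that exact test, and without ND plate 1 it was 0.60. At the 90th percentile target the difference was 0.03 ± 0.11 SE.

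**Figure D3:**
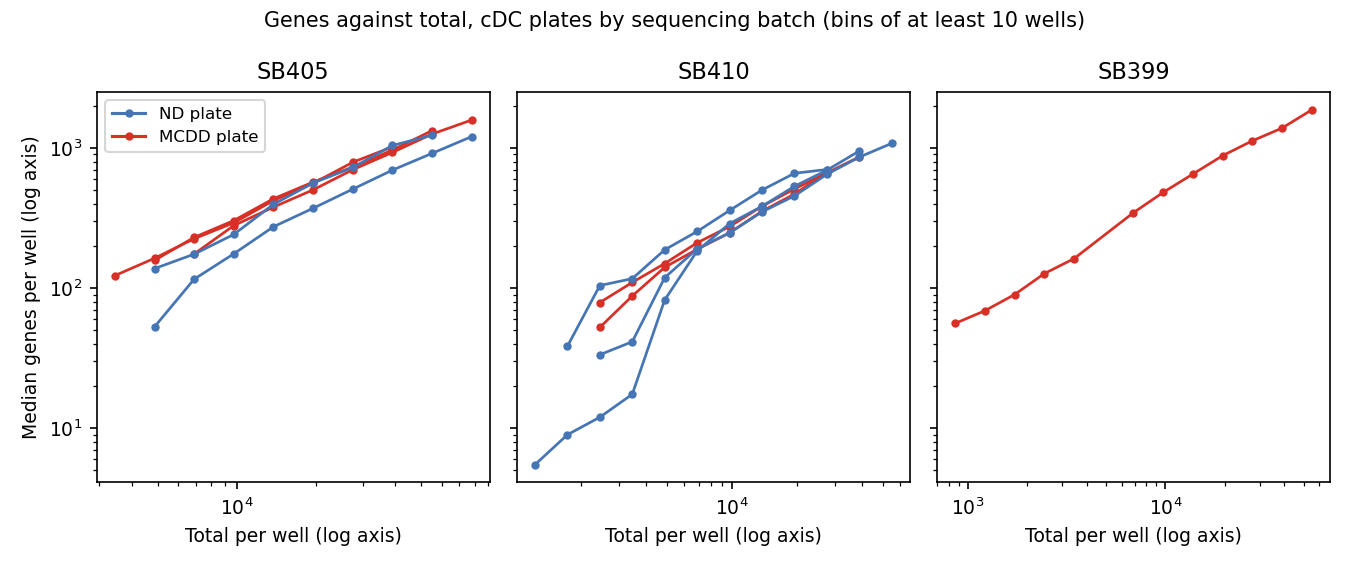
Median genes against total per well, both on log axes, in bins of the total with at least 10 wells. Each line is 1 cDC plate, and the panels are the sequencing batches. In SB410 ND plate 6 lies above the other plates (515 genes at a total of 15712.2, against 379.5 to 413.5). The other SB410 lines run close together at high totals and separate at low totals. ND plate 1 is lowest there (13 genes at a total of 2741.8). In SB405 ND plate 3 lies under the other plates throughout (365.5 genes at 17653.5 and 96 at 6560.2).

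How steeply genes grew with the total within a plate was lower on MCDD. The slope of log2(genes + 1) on log2(total + 1) was 1.09 and 1.11 on the ND plates of SB405, and 0.90, 0.91 and 0.93 on its MCDD plates. In SB410 it was 1.45, 1.09 and 1.0105 on ND and 0.93 on both MCDD plates. No MCDD plate reached the lowest ND plate in either batch, and MCDD plate 1 of SB399 had 0.88. The slope is that of 1 straight line over all cell wells of a plate, and the relation was not straight. On ND plate 1 of SB410 the median rose from 17.5 to 184.5 genes between the bins starting at totals of 2896.31 and 5792.62. From the bin at 8192 to that at 16384 it rose from 289 to 533.5. A slope above 1 thus does not mean that genes more than doubled with the total at every depth. The 5 ND plates averaged 1.15 ± 0.17 (SD, n = 5) and all 6 MCDD plates 0.92 ± 0.02 (SD, n = 6). Within batches the slope fell by 0.22 ± 0.09 SE on MCDD (exact permutation test, p = 0.02, with 0.01 the smallest p that the 100 relabellings allow). The correlation of log2 genes with log2 total over the 380 wells of a plate was 0.88 to 0.98, as a description.

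The spread of genes over the wells of a plate was lower on MCDD in both batches. The spread of a plate was the log2 of its 90th over its 10th percentile of genes, with 1 added to each. It was 3.23 and 3.52 on the ND plates of SB405 and 2.305, 2.57 and 2.66 on its MCDD plates. In SB410 it was 6.30, 3.73 and 3.10 on ND and 2.88 and 2.69 on MCDD. Again no MCDD plate reached an ND plate of its batch. Expressed as a fold, with 1 added to each percentile, the 90th was 8.60 to 79.0 times the 10th on ND plates. On the MCDD plates of these batches it was 4.94 to 7.37 times. Outside them, MCDD plate 1 of SB399 had a spread of 4.07, within the range of ND. The spread fell by 1.23 ± 0.64 SE (exact permutation test, p = 0.04, n = 5 plates per diet). By its definition this is the difference at the 90th percentile (-0.17) minus that at the 10th (1.06). It restates those differences, mostly the one at the 10th percentile, and is not separate evidence. Without ND plate 1 of SB410 the spread fell by 0.76 and the slope by 0.15 (exact permutation test, p = 0.0167 each). That is the smallest p possible without this plate, and both differences were smaller than with it. Taken over the 11 plates without regard to batch, the spread differed by -1.12 and missed the threshold (exact permutation test, p = 0.0584).

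Slope and spread were 2 of 17 readouts tested between diets, each called in a family of its own. They were also the only 2 with an unadjusted p under 0.05 by exact permutation. Adjusted over all 17, none passed, and both had 0.2975. The call for the slope was lost without MCDD plate 1 or MCDD plate 2 of SB410 (exact p = 0.1 each), with the value at -0.21. The call for the spread was lost without any 1 of the 5 plates of SB405 or the 2 MCDD plates of SB410 (exact p of 0.05 to 0.225), with values of -1.34 to -1.15.

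Neither call was made among wells of more genes. Among wells with at least 100 genes the slope was 0.81 to 0.91 on ND and 0.81 to 0.89 on MCDD, and the difference was -0.002 ± 0.016 SE (exact permutation test, p = 0.9). The spread among these wells was 2.31 to 2.48 on ND and 2.05 to 2.47 on MCDD, a difference of -0.19 ± 0.07 SE (exact permutation test, p = 0.05). This filter cuts the readout that slope and spread are computed from, so these values do not show which wells the differences came from. Without the 10% of wells with the lowest totals on each plate, the slope differed by -0.17 (exact permutation test, p = 0.08). Wells under 100 genes were also poorer for their depth on ND. The median of genes per 1000 of the total in them was 9.98 and 6.55 on the ND plates of SB405 and 11.1, 16.2 and 19.8 on its MCDD plates. In SB410 it was 5.55, 10.4 and 19.8 on ND and 22.2 and 22.3 on MCDD. In both batches every MCDD plate was above every ND plate, as a description of wells chosen by their genes. The nearest plates were close, at 9.98 and 11.1 in SB405 and 19.8 and 22.2 in SB410. In SB405 the medians rest on 35 and 46 wells on ND and only 7, 4 and 21 on MCDD. Each plate was also restricted to wells with more genes than its highest empty well. The slope difference was then -0.20 ± 0.06 SE (exact permutation test, p = 0.01) and the spread difference -1.08 (p = 0.03). This filter cuts on genes too, and in SB405 it cut at higher values on MCDD than on ND. It removed 40 wells from ND plate 1 of SB410 and at most 3 from any other plate of these batches. Empty wells were higher on the MCDD plates of SB405, and their part in the result there was not tested. In SB410 the highest empty wells overlapped between diets. The slope difference there was -0.25, and -0.12 without ND plate 1, where the median total of empty wells was 1197.5 and on the other SB410 plates 161 to 486.

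T cells and doublets from the same lymph nodes were compared to see whether the pattern belonged to cDC. The slope differed by -0.10 ± 0.05 SE in T cells (exact permutation test, p = 0.0529) and by -0.10 ± 0.05 SE in doublets (p = 0.333, with 0.167 the smallest p possible). The diet difference in cDC minus that in T cells was -0.12, and minus that in doublets -0.11, and neither passed (exact permutation test, adjusted p = 0.55 each). The 10th percentile of genes in T cells differed by -0.81 ± 0.72 SE, against 1.06 in cDC, a difference between sorts of 1.87 (exact permutation test, p = 0.0182, adjusted p = 0.1456 over 8). That value rested on T cell plate 3 on MCDD in SB405. It had 7 genes at its 10th percentile, against 144 to 254.9 on the other T cell plates, and without it the difference between sorts was 1.02 (exact permutation test, adjusted p = 0.332). The spread gave a difference between cDC and T cells of -1.87 (exact permutation test, adjusted p = 0.111), and -1.06 without that plate. Leaving out another MCDD T cell plate of SB405 instead made a call, for the spread without plate 4 (-2.23, exact permutation test, adjusted p = 0.0264) and for the 10th percentile without plate 5 (2.21, adjusted p = 0.0443). In doublets the 10th percentile differed by 1.3004 ± 1.38 SE and the spread by -1.13 ± 1.65 SE, with 3 plates per diet, and the differences from cDC were -0.24 and -0.10 (exact permutation test, adjusted p = 0.987 and 0.948). With every plate included, none of the 8 planned and 4 added differences between sorts passed.

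**Figure D4:**
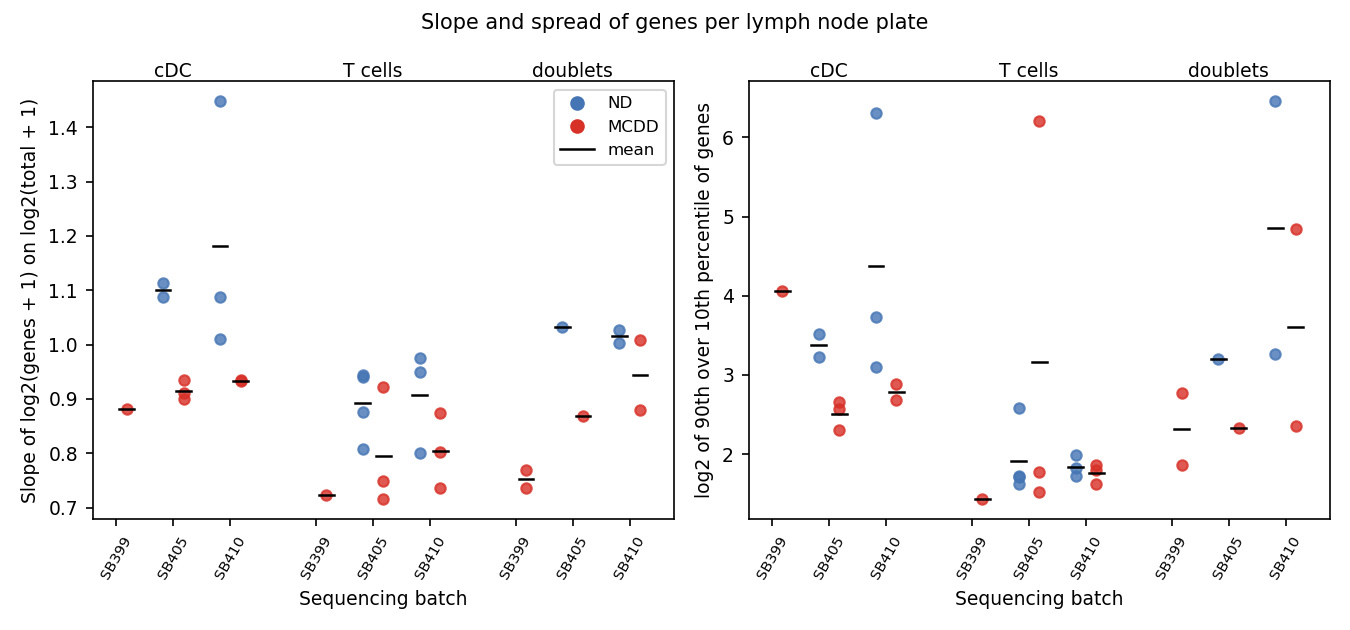
Slope of log2(genes + 1) on log2(total + 1) (left) and log2 of the 90th over the 10th percentile of genes, 1 added to each (right). Each point is 1 lymph node plate, by sort and sequencing batch, with the mean as a line. In SB405 and SB410 every cDC plate on MCDD (slope 0.90 to 0.93) lies below every ND plate of its batch (1.0105 to 1.45). The T cell plate on MCDD with a spread of 6.21 is plate 3 of SB405.

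Apart from diet, cDC wells differed from T cell wells at their upper end. Within batch and diet, the 90th percentile of genes was higher in cDC by 0.39 ± 0.11 SE on the log2 scale, and genes at the median total of the lymph node wells of the batch by 0.26 ± 0.08 SE. Both passed, at 0.0235 after adjustment, in the permutation test over 11 cDC and 14 T cell plates. The 90th percentile was higher by 0.97 in SB399, 0.50 in SB405 and 0.17 in SB410. Without ND plate 2 of SB405 neither passed (adjusted p = 0.0998 and 0.104 in permutation tests). The slope was steeper in cDC by 0.18 ± 0.04 SE (permutation test, adjusted p = 0.00016) and the spread wider by 1.22 ± 0.48 SE (permutation test, adjusted p = 0.0419). The spread lost its call without MCDD plate 1 of SB399, either ND plate of SB405, either MCDD plate of SB410 or ND plate 1 of SB410 (permutation test, adjusted p of 0.0515 to 0.0816). At the 10th percentile the difference of -0.83 ± 0.47 SE did not pass (permutation test, adjusted p = 0.25). It was -1.66 in SB399, -1.68 in SB410 and 0.095 in SB405. The SB405 value includes T cell plate 3 on MCDD, with 7 genes at its 10th percentile. T cell plates were not left out in turn for this comparison, so a difference at the low end remains undecided. Between cDC and doublets no readout passed with every plate included, at 0.08 ± 0.06 SE in the slope (exact permutation test, adjusted p = 0.0809) and -0.25 ± 0.25 SE in genes at the median total (adjusted p = 0.572). The slope passed without ND plate 2 or ND plate 6 of SB410 (exact permutation test, adjusted p = 0.0453 and 0.0216). Genes at the median total passed without MCDD plate 1 of SB399 (-0.43, adjusted p = 0.0304).

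cDC from liver and blood, labelled with the same selection markers, were sequenced in other batches, so their values are set beside these without a comparison. The slope was 0.64 to 0.88 on the 12 liver cDC plates and 0.71 to 0.83 on the 4 blood cDC plates, against 0.88 to 1.45 on the 11 lymph node plates. In the liver sorts the plates of the 2 diets overlapped in slope, with 0.66 to 0.88 on ND and 0.64 to 0.85 on MCDD. In blood the 2 ND plates had 0.71 and 0.75 and the 2 MCDD plates 0.83 and 0.81, the opposite order to the lymph node.

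Most of the variation among lymph node cDC lay between wells of the same plate. Of the sum of squares of log2(genes + 1) over the 4180 wells, 86.6% lay within plates, 10.7% between batches, 2.0% between plates of 1 batch and diet and 0.68% between diets. For the total these shares were 81.9%, 13.4%, 4.4% and 0.32%. The 10% of wells with the highest totals held 25.3% to 31.9% of a plate's summed total. Wells on the plate edge had fewer genes than inner wells on 9 of 11 cDC plates, with a median difference of -0.17 on the log2 scale and a range of -0.48 to 0.10. The upper rows had fewer genes than the lower rows on 9 of 11 plates, with a median difference of -0.26.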

How the data were processed

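Per the labels' protocols, sorted cells had their mRNA barcoded in capture plates (384 wells in the tables), pooled and amplified by T7 transcription before library preparation. The submitters' processing notes name bcl2fastq 2.15.0.4 and mm10. Aligner, counting and filters were not given in the sources used here. Whole-number counts per well were deposited by the authors as 3 columns: a total, the genes detected and the cells listed. Whether the total counts reads or molecules is not stated. Plates were matched to labels by the batch name in the sample title, and 118 of 120 listed plates were analysed here.

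The plate was the replicate. Nothing in the labels ties a plate to its own animal, so every p-value rests on plate-to-plate spread, possibly technical. Plate percentiles of genes and totals (log2 with a pseudocount of 1), genes at a target total (at least 20 wells), slope, spread and shares of wells were compared by two-sided exact permutation of diet labels within sequencing batch, averaged over batches by their plates. For comparisons between sorts, sort labels were permuted inside each batch and diet, by enumeration or 100000 draws. Benjamini-Hochberg adjustment covered each family, and an adjusted p under 0.05 was a call. SE use the variance pooled within batches. Members, readouts and tests were chosen with earlier results of these data known. The readouts at the 10th and 90th percentile of the total, the share of wells at or under the empty wells, the slope and spread between sorts, and the test between batches were added after these tables were seen. The fixed rule for named genes and the fixed cell type markers could score nothing, since no gene is named. Wilson intervals and the limit for a share of 0 (3 counts) cover counting error only.

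Plates were simulated with the layout of the cDC plates, 200 draws each. The noise was normal, with the same SD in both diets, pooled from the plates within batch and diet. The plates did not share such an SD in the slope, which in SB410 was 1.0105 to 1.45 on ND and 0.93 on both MCDD plates. A 2-fold difference in the median of genes gave an unadjusted p under 0.05 in 100% of draws. A 1.41-fold difference gave it in 88.5% and no difference in 4.5%. A slope difference of 0.2 gave it in 47.5% and none in 4%. The spread was not simulated, nor was the 10th percentile of genes, where the SE was 0.61 against 0.13 at the median. The shares for the median do not apply to them. Software was scipy 1.17.1, pandas 2.3.3 and numpy 2.4.6 under Python 3.11.15, with plots by matplotlib 3.10.9.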

Additional observations from a re-analysis of the deposited data

Results flagged for a closer look

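Among 40 checks for an isolated plate within a diet (Dixon's ratio at the 95% level, 5 ND or 6 MCDD plates over 20 readouts), 6 marked a plate, and chance marks about 1 in 20. They fell on 2 plates. ND plate 1 of SB410 stood apart with the lowest 10th percentile of genes (3.32 on the log2(genes + 1) scale), the steepest slope (1.45), the widest spread (6.30) and the largest share of wells at or under its highest empty well (10.5%). MCDD plate 1 of SB399 had the widest spread among MCDD plates (4.07) and the largest share of wells at or under its highest empty well (14.2%). The checks took the plates of a diet from all batches together. SB399 held no other cDC plate, so an isolated plate and a different batch cannot be told apart there. These readouts are not independent of each other.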

How the results depend on the processing

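Of 671 recomputed values, 555 kept their direction and their side of the threshold, 63 reversed, 45 became weaker and 8 stronger. Only 2 of the 17 diet readouts were called at first, so keeping a side of the threshold says little for the others. Differences are MCDD minus ND or cDC minus the other sort, on the log2 scale unless given as a share. Pooling all plates without batches gave 0.18, 0.10 and 0.092 for the median, 75th and 90th percentile of genes, -1.12 for the spread and 0.45 percentage points for the share of wells at or under the empty wells. SB405 alone gave 0.12, 0.15 and 0.14 for those percentiles, -0.19 for the slope, -0.86 for the spread and 0.22 points for that share. SB410 alone gave -0.15, -0.12 and -0.14 for genes at the median, 75th and 90th percentile totals, -0.25 for the slope, -1.60 for the spread and -2.94 points for wells with at least 1000 genes. Without its ND plate 1, left out after seeing the data, SB410 gave -0.12 for the slope, -0.63 for the spread and -2.24 points for those wells. A single batch cannot reach an adjusted p under 0.05 for the slope or the spread.

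Among wells with at least 100 genes the 10th and 25th percentile differed by -0.022 and -0.12 for genes and by -0.20 and -0.29 for the total, the slope by -0.0016, the spread by -0.19 and wells with at least 1000 genes by -0.65 points. The mean over wells gave 0.16 in place of the median, the 75th over the 25th percentile gave -0.53 for the spread, and a threshold of 500 genes gave -3.68 points. Without the lowest 10% of totals, an alternative chosen after seeing the data, the slope differed by -0.17. The causes of these changes were not tested.

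With the replicate block, which used the 3 pairs of plates sharing a number and a batch, the slope differed by -0.29, the spread by -1.90, the 25th percentile of the total by -0.054 and wells with at least 1000 genes by -0.61 points. The median, 75th and 90th percentile of the total differed by -0.47, -0.53 and -0.56, larger than the -0.22, -0.27 and -0.25 without it, and genes at the 25th percentile target by 0.45 against 0.25. The 10th percentile of genes differed by 1.60 against 1.06. The smallest exact p that 3 pairs allow is 0.25.

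For the diet difference in cDC minus that in another sort, pooling batches gave 0.25 against T cells and 0.063 against doublets at the 90th percentile, and 0.20 at the median total and 0.35 for the spread against doublets. Wells with at least 100 genes gave -0.078 at the median and 0.067 for the slope against T cells, and 0.057 for the slope and 0.0080 for the spread against doublets.

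For cDC minus T cells, the 90th percentile and genes at the median total lost their calls with pooled batches (0.39 and 0.26), in SB399 (0.97 and 0.50), SB405 (0.50 and 0.36) and SB410 alone (0.17 and 0.096), on ND alone (0.33 and 0.21) and on MCDD alone (0.45 and 0.30). The slope lost its call in SB399 (0.16) and on MCDD alone (0.13), and the spread in SB399 (2.64), SB405 (0.40) and on MCDD alone (0.50). SB399 held 1 cDC plate and 1 T cell plate, so no call was possible there at any value. The 10th percentile was called in SB410 (-1.68), on ND alone (-1.67) and among wells with at least 100 genes (-0.39), and was 0.095 in SB405. For cDC minus doublets, SB399 gave 0.87 for the 90th percentile and 0.73 for genes at the median total. The 10th percentile was 0.32 in SB410 and 0.15 on ND alone. The spread was -0.020 with pooled batches, -0.63 in SB410, -0.24 on ND alone and 0.27 among wells with at least 100 genes, where it was called.

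Leaving out each cDC plate in turn moved the diet difference between -0.25 and -0.15 for the slope, -1.47 and -0.76 for the spread, and -0.030 and 0.17 for the 25th percentile of the total. Genes at a given total moved between 0.60 and 1.26 at the 10th percentile target, -0.067 and 0.12 at the median, -0.077 and 0.16 at the 75th and -0.099 and 0.12 at the 90th. Wells with at least 1000 genes moved between -0.97 and 0.94 points, and wells at or under the empty wells between -2.04 and 0.24 points. The diet difference in cDC minus that in T cells moved between -0.0013 and 0.13 at the median, -0.074 and 0.067 at the 90th percentile and -0.018 and 0.17 at the median total, and against doublets the spread moved between -0.34 and 0.37. T cell plates left out in turn, chosen after seeing the data, reached -0.017 at the median and -0.13 at the 90th percentile, both without ND plate 6 of SB405. For cDC minus T cells the ranges were 0.34 to 0.42 for the 90th percentile, 0.21 to 0.30 for genes at the median total and 0.96 to 1.32 for the spread. For cDC minus doublets they were -0.27 to 0.047 for the 10th percentile, -0.43 to -0.21 for genes at the median total, 0.048 to 0.097 for the slope and -0.28 to 0.21 for the spread.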

Other observations

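Some wells ranked low in genes on average over plates. Each well of the lymph node plates carried a fixed barcode, so position and barcode cannot be told apart within them. Wells were ranked by genes within each plate, and the mean percentile over the 11 cDC plates ran from 11.1 to 76.0 over the 380 cell wells, with a median of 50.6. The extreme wells below are shown because they had the lowest mean percentiles, and they were picked by these values. The 5 lowest wells, with the whole barcode in capitals, were:

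C20: CACAGTA

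D18: GCGTTAG

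D22: ATCACGG

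P23: GACACCT

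C13: TACTAGC

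On the cDC plates C20 had a mean percentile of 11.1 and a median of 86 genes, and D18 had 12.2 and 53 genes. On the T cell and doublet plates, which were not used to pick them, C20 had a mean percentile of 14.6 and D18 of 12.8. D22 had 22.1 on cDC plates and 23.8 on the others, and P23 and C13 had 23.7 and 24.0 against 42.9 and 31.0. All 5 thus lay under the middle of the plate in both sets. The 5 highest wells were I9, K16, K21, O19 and G7, with mean percentiles of 72.5 to 76.0 on cDC plates and 45.5 to 65.9 on the T cell and doublet plates.

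Over the 380 wells the mean percentile on cDC plates and on the T cell and doublet plates correlated at r = 0.50, as a description across wells that share a position and a barcode. Between the ND and the MCDD plates of cDC it was 0.18. On the plates of the other sorts of the series 190 of these barcodes sat in other wells. There the correlation with the cDC plates was 0.09 for the same barcode and 8.6e-05 for the same well. The barcode of C20 had a mean percentile of 24.2 in its other well, and that of D18, which kept its well, had 48.8.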
